A study of Mus musculus with 16 samples.

Results

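Angiogenic factors and endothelial markers were described in mouse granulosa cells (mGCs) through 10 genes chosen by their symbols, of 57010 genes counted by RNA-seq. All 10 were found in the tables of both experiments. The first experiment compared mGCs taken freshly from sham-operated mice (Con-mGC, 5 mice) with mGCs from mice of the endometriosis model (EM-mGC, 5 mice). In the second, mGCs from EM model mice were cultured in DMEM/F12 with 5% FBS. These cells were given either 14, 15-EET at 100 nM (EET, 3 libraries) or an equal volume of PBS (PBS, 3 libraries) for 24 h. A figure legend of the study places 24 h of culture before this treatment, whereas its methods name only 24 h for each part. The epoxyeicosatrienoic acid 14, 15-EET is a lipid mediator made from arachidonic acid. All mice were ICR females, bought as young adults. The EM mice carried endometrium of other ICR mice, sewn onto the mesentery of the bowel. They kept their own ovaries and received 17β-estradiol, which was stopped before ovulation was induced with PMSG or HCG. The fresh mGCs of the sham group were likewise taken after ovulation induction. The model thus rests on allografts supported by added estrogen, and whether the sham group received estradiol as well is not spelled out in the methods. The cultured cells came from 6 EM mice and gave 3 paired replicates, and how many mice each library holds is not stated.

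The granulosa layer of a growing follicle contains no blood vessels, and capillaries lie in the theca outside the basement membrane. Granulosa cells of the maturing follicle secrete VEGFA, which acts on receptors of endothelial cells, and vessels grow into the former granulosa layer when the corpus luteum forms. Angiopoietin-1 activates the endothelial receptor TEK and steadies vessels, whereas angiopoietin-2 binds the same receptor and in most settings opposes it. The other genes mark the endothelium itself: the VEGF receptors Kdr and Flt1, the angiopoietin receptor pair Tek and Tie1, the TGF-beta and BMP co-receptor Eng, and the adhesion proteins Cdh5 (VE-cadherin) and Pecam1 (CD31).

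Fresh libraries held between 14229123 and 15999234 reads on genes, and cultured libraries between 21384686 and 29482826. Levels below are CPM, counts scaled to a common library size, after TMM normalization, done separately for each experiment. Granulosa markers were present in both, though lower in culture. The 12 markers summed to 17875 CPM on average in Con-mGC, 16796 in EM-mGC, 7560 in PBS and 6758 in EET. In culture 10 of the 12 had a mean of at least 1 CPM. The other 2 were Cyp19a1, with 0, 3 and 9 reads in the PBS libraries, and Amh, with 8, 6 and 5. Of the 12 markers, 9 were at least 2-fold lower in PBS than in EM-mGC, and 3 were at least 10-fold lower. Cells other than granulosa cells also left RNA in the fresh libraries, where all 28 further endothelial markers, all 14 leukocyte markers and all 7 oocyte markers had reads in both groups. Mitochondrial genes took 21.8% of the reads in EM-mGC-3, against 6.76% to 11.1% in the other fresh libraries. In such bulk libraries, fewer cells of a type and less RNA per cell cannot be told apart.

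**Figure D1:**
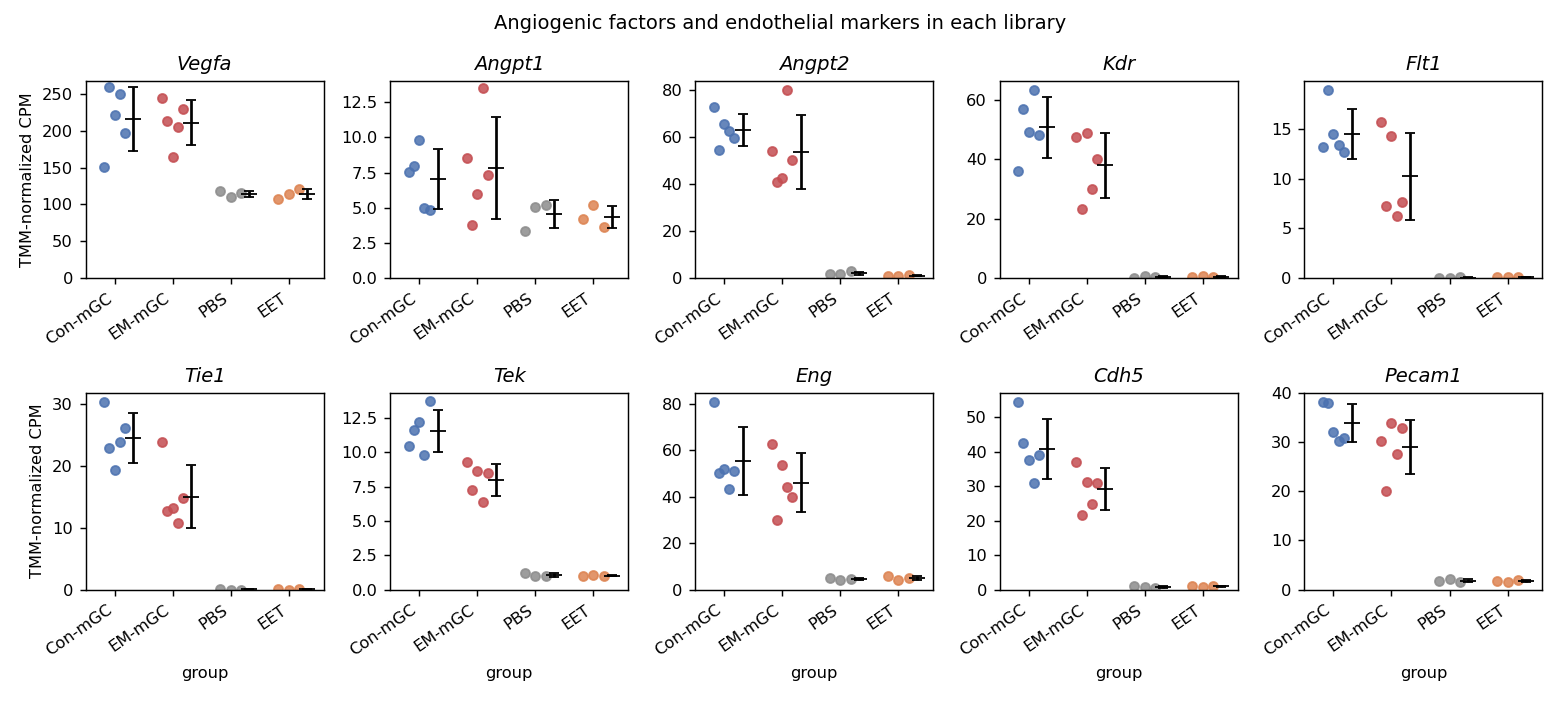
Each panel shows 1 gene, with TMM-normalized CPM on a linear axis that starts at 0 and the 4 groups on the horizontal axis. Points are libraries, horizontal marks are means and error bars are SD (5 libraries in Con-mGC and EM-mGC, 3 in PBS and EET). Vegfa remained above 100 CPM in every library, whereas Kdr, Flt1, Tie1 and Cdh5 lay near 0 in all cultured libraries. The fresh and the cultured libraries were normalized separately.

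Vegfa was the most abundant of the 10 genes when levels were set per kilobase of exon. In Con-mGC its mean was 50.5 CPM per kb, followed by Angpt2 with 17.1, Eng with 13.7 and Cdh5 with 9.72. Below these came Kdr (5.61), Pecam1 (5.45), Tie1 (5.00), Tek (2.46), Angpt1 (1.35) and Flt1 (1.08). The libraries of neighbours in this order did not overlap for Vegfa above Angpt2, Cdh5 above Kdr, Tie1 above Tek and Tek above Angpt1. The other neighbours overlapped and are not ordered beyond their spread. In EM-mGC the order differed only in that Pecam1 (4.66) stood above Kdr (4.19). In the PBS cultures Vegfa was again first with 26.8 CPM per kb, and Eng (1.16) and Angpt1 (0.870) came next without overlap of their libraries. In the EET cultures these 3 genes had 26.7, 1.23 and 0.833 CPM per kb, in the same order and again without overlap.

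The secreted ligand VEGFA is encoded by Vegfa on chromosome 17 (46327919 to 46343295, minus strand, in the deposited coordinates, for which the processing notes name GRCm39). The 5 Con-mGC libraries had 151, 260.4, 222, 251 and 198 CPM, and the 5 EM-mGC libraries had 245, 213, 164, 205 and 229.8 CPM. Every EM-mGC value lay within the range of the Con-mGC values. Means were 216 ± 44.1 CPM (SD, n = 5) and 212 ± 30.5 CPM (SD, n = 5), a log2 fold change of -0.03 with a standard error (SE) of 0.16. The adjusted p was 0.957 by the quasi-likelihood test of edgeR after Benjamini-Hochberg correction, which is the test behind every adjusted p here unless another is named. The PBS libraries had 118, 110.3 and 116 CPM and the EET libraries 108, 114 and 121 CPM. These cultured libraries spanned a narrow range, and the EET values spread past both ends of the PBS range. The log2 fold change of EET against PBS was -0.00334 with a standard error of 0.05 (adjusted p = 0.988).

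The 250 bases before a RefSeq start of Vegfa are shown (chr17:46032378-46032627, GRCm38.p6, minus strand, written 5′ to 3′). Vegfa was picked because it had the highest level per kb of the 10 genes in all 4 groups. Capitals mark GGGCGG, the core of the binding motif of SP1-type factors, searched on both strands.
Vegfa: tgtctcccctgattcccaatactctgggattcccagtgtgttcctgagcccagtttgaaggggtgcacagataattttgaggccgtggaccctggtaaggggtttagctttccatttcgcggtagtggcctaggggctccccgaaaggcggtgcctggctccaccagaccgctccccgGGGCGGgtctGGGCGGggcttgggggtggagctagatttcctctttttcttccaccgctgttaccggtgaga
It held 2 such matches, and 16.7% of 32851 RefSeq promoter windows of this length held at least as many. The window of another RefSeq start of Vegfa, not printed (chr17:46025164-46025413), held 1 match (32.7%). A match is a description of the letters and no measure of binding.

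Angpt2, whose product antagonizes TEK in most settings, was the second of the 3 ligands by level per kb in the fresh cells (chromosome 8, 18740279 to 18791578). It had 73.0, 54.6, 65.5, 62.8 and 59.5 CPM in the Con-mGC libraries and 53.9, 40.9, 42.6, 79.9 and 50.3 CPM in the EM-mGC libraries. EM-mGC-4 was above every Con-mGC library, and the other 4 EM-mGC libraries were below all of them. Means were 63.1 ± 6.88 CPM and 53.5 ± 15.7 CPM (SD, n = 5 each), with a log2 fold change of -0.24, a standard error of 0.17 and an adjusted p of 0.665. Without EM-mGC-4 the log2 fold change was -0.43, and without EM-mGC-2 it was -0.15. Angpt2 lies inside Mcph1 on the opposite strand (8803 and 8969 reads over the fresh libraries), and the counting by strand is not stated, so its level is uncertain to that extent.

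Angpt1, the activating ligand of TEK, was far lower (chromosome 15, 42288119 to 42540373). Con-mGC libraries had 7.56, 7.97, 9.82, 4.97 and 4.83 CPM, and EM-mGC libraries had 8.57, 3.75, 5.97, 13.5 and 7.31 CPM. The EM-mGC values spread past both ends of the Con-mGC range, and this was the single gene of the 10 with a higher fitted level in EM-mGC (log2 fold change 0.15, SE 0.32, adjusted p = 0.891). Within each fresh library Angpt2 exceeded Angpt1, with ratios of CPM per kb between 9.41 and 17.8 in Con-mGC (median 13.6) and between 8.34 and 15.4 in EM-mGC (median 9.71).

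The VEGF receptors were Kdr (VEGFR2), the main signalling receptor for VEGFA on endothelial cells, and Flt1 (VEGFR1), which also acts as a decoy. In the deposited coordinates both lie on chromosome 5, Kdr at 76093487 to 76139118 and Flt1 at 147498414 to 147662821. Kdr had 36.2, 56.9, 49.1, 63.2 and 48.1 CPM in the Con-mGC libraries and 47.4, 23.3, 48.8, 30.0 and 39.9 CPM in the EM-mGC libraries. EM-mGC-2 and EM-mGC-4 lay below all Con-mGC libraries, and the other 3 lay within their range. Kdr had a log2 fold change of -0.42 (SE 0.21, adjusted p = 0.541). Flt1 had 13.2, 18.9, 14.5, 13.4 and 12.7 CPM in Con-mGC and 15.7, 7.29, 14.4, 6.28 and 7.65 CPM in EM-mGC. EM-mGC-2, EM-mGC-4 and EM-mGC-5 were lower than every Con-mGC library, whereas EM-mGC-1 and EM-mGC-3 were not. Flt1 had a log2 fold change of -0.51 (SE 0.26, adjusted p = 0.556).

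The receptor pair of the angiopoietins showed the lowest unadjusted p-values of the 10 genes. Both lie on chromosome 4, Tek at 94627526 to 94763213 and Tie1 at 118328388 to 118347258. Tek, the receptor itself, had 10.5, 11.6, 12.3, 9.81 and 13.7 CPM in the Con-mGC libraries and 9.33, 7.23, 8.63, 6.41 and 8.48 CPM in the EM-mGC libraries. All EM-mGC libraries were below all Con-mGC libraries, and Tek was the 1 gene of the 10 whose groups did not overlap. Such a separation was found for 292 of 17229 tested genes (1.69%), with EM-mGC lower for 134 (0.778%) and higher for the rest (0.917%). Means were 11.6 ± 1.54 CPM and 8.02 ± 1.17 CPM (SD, n = 5 each), with a log2 fold change of -0.53 and a standard error of 0.16. The unadjusted p was 0.00543 and the adjusted p 0.418 by edgeR's quasi-likelihood test, so Tek did not pass the threshold of 0.05.

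Tie1, the orphan partner of TEK, had 30.4, 23.0, 19.4, 23.9 and 26.2 CPM in Con-mGC and 23.9, 12.7, 13.2, 10.7 and 14.8 CPM in EM-mGC. EM-mGC-2 to EM-mGC-5 lay below every Con-mGC library, and EM-mGC-1 lay within the Con-mGC range. Its log2 fold change of -0.71 (standard error 0.21) was the lowest of the 10 genes, with an unadjusted p of 0.00492 and an adjusted p of 0.418 by edgeR's quasi-likelihood test.

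The 250 bases before the RefSeq starts of these 4 receptors are printed. All 4 had negative log2 fold changes in the fresh cells and low levels in culture. Eng, Cdh5 and Pecam1 had so too, and their windows are not printed. Any relation of the sequences to these levels was not tested. Positions are Kdr at chr5:75978456-75978705 (minus strand), Flt1 at chr5:147726012-147726261 (minus strand), Tek at chr4:94739039-94739288 (plus strand) and Tie1 at chr4:118489850-118490099 (minus strand), all in GRCm38.p6 and written 5′ to 3′. Capitals mark GGAA or its reverse complement TTCC, the core of the binding motif of ETS factors, a family with known roles in endothelial genes.
Kdr: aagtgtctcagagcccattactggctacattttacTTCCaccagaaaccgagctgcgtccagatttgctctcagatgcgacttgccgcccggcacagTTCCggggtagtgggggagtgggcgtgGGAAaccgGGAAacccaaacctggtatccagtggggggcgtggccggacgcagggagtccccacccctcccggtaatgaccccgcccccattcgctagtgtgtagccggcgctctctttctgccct
Flt1: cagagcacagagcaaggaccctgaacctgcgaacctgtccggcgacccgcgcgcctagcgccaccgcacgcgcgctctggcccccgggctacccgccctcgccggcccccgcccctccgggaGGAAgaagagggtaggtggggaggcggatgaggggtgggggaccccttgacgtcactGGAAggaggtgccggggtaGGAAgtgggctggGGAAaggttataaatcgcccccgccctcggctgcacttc
Tek: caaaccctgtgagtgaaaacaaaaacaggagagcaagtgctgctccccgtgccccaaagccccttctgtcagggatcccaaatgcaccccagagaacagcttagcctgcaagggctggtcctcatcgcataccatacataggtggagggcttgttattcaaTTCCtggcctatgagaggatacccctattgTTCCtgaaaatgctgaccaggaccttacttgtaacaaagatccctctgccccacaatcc
Tie1: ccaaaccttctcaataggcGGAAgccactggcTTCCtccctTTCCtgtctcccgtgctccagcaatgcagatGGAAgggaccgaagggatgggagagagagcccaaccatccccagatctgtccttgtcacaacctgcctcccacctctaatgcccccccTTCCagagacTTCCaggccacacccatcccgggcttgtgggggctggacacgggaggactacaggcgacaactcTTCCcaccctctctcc
Tie1 held 7 such matches, and 3.82% of 32851 windows held at least as many. Kdr and Flt1 held 4 each (33.4%) and Tek 2 (76.8%). At least 1 match was present in 93.4% of all windows, with a median of 3, so these short letters are common. Eng held 3 (54.7%). The printed Vegfa window held 6 (8.69%) and its other window 2 (76.8%).

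Eng, the co-receptor for TGF-beta family ligands that is also called endoglin, had 81.0, 50.2, 52.0, 43.3 and 51.1 CPM in Con-mGC and 63.0, 30.0, 53.6, 44.1 and 39.7 CPM in EM-mGC. Con-mGC-1 stood apart at the top, EM-mGC-2 and EM-mGC-5 lay below the Con-mGC range, and the other values were interleaved. Eng had a log2 fold change of -0.27 (SE 0.21, adjusted p = 0.685), which was -0.09 without Con-mGC-1, -0.15 without EM-mGC-2 and -0.41 without EM-mGC-1. The end of Eng overlaps Fpgs on the opposite strand (4036 reads in the fresh libraries), which limits its count in the same way as for Angpt2.

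Cdh5, the cadherin of endothelial junctions, had 54.4, 42.5, 37.6, 30.8 and 39.0 CPM in Con-mGC and 37.1, 21.6, 31.2, 24.8 and 30.8 CPM in EM-mGC. EM-mGC-2, EM-mGC-4 and, narrowly, EM-mGC-5 were below all Con-mGC libraries. Cdh5 had a log2 fold change of -0.49 (standard error 0.17), an unadjusted p of 0.0144 and an adjusted p of 0.462 by edgeR's quasi-likelihood test. Pecam1, an adhesion protein that platelets and leukocytes carry as well, had 38.3, 38.0, 32.2, 30.4 and 31.0 CPM in Con-mGC and 30.4, 20.1, 34.0, 27.6 and 33.01 CPM in EM-mGC. EM-mGC-2 and EM-mGC-4 lay below the Con-mGC range, and its log2 fold change was -0.23 (SE 0.14, adjusted p = 0.622), or -0.12 without EM-mGC-2.

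Against the background of all genes, 9 of the 10 genes had a negative log2 fold change in EM-mGC, as had 51.8% of the 17229 genes tested. Their median was -0.35 (-0.22 without EM-mGC-2), and that of all genes -0.01. None of the 10 (0 genes) was called at an adjusted p under 0.05 by edgeR's quasi-likelihood test or by DESeq2. Over all genes edgeR called 0 (0%), with a smallest adjusted p of 0.207, and DESeq2 called 116. At an unadjusted p under 0.05, 3 of the 10 passed and all were lower (Tie1, Tek and Cdh5), beside 1626 of all genes (9.44%), of which 727 were lower (4.22%) and 899 higher (5.22%). The 7 endothelial receptors and adhesion genes (Kdr, Flt1, Tek, Tie1, Eng, Cdh5 and Pecam1) summed to 232 ± 20.8 CPM in Con-mGC and 175 ± 41.6 CPM in EM-mGC (SD, n = 5 each), and all 7 had a negative log2 fold change with a median of -0.49. The sum was below every Con-mGC library in EM-mGC-2 to EM-mGC-5 (122 to 204 CPM against at least 215) and within their range in EM-mGC-1 (227).

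**Figure D2:**
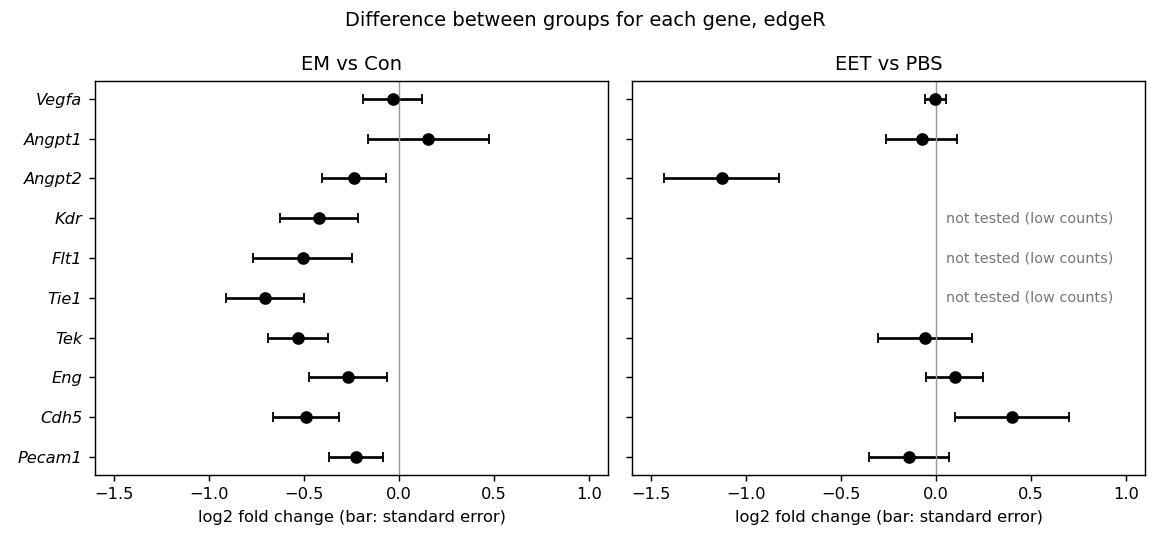
Points are log2 fold changes of the 10 genes from edgeR's quasi-likelihood fit, EM-mGC against Con-mGC and EET against PBS, and bars are 1 standard error. In EM-mGC, Tie1 (-0.71), Tek (-0.53) and Flt1 (-0.51) lay farthest below 0 and Vegfa at -0.03, and in EET Angpt2 lay lowest at -1.13. Kdr, Flt1 and Tie1 had too few reads to be tested in culture.

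Further genes of the same pathways and of the cells around the follicle were read from lists. Among the other VEGF and angiopoietin pathway genes, 10 of 11 tested had a negative log2 fold change, with a median of -0.23 and 3 at an unadjusted p under 0.05, all lower. These 3, named after their values were seen, were Svep1 (-0.69), a matrix protein, Flt4 (-0.49), the receptor of the lymphatic VEGFs, and Ptprb (-0.40), a phosphatase that restrains TEK. Of the 28 other endothelial markers 22 were lower, with a median of -0.22, 4 lower and 1 higher at an unadjusted p under 0.05. The 1 higher was Clec14a, the most abundant of them, with 119 CPM in Con-mGC and 146 CPM in EM-mGC (log2 fold change 0.30). Cd34 and Cd93, next in level, had fresh means of 52.8 and 35.6 CPM. The sum of the 28 overlapped widely, with 450 to 584 CPM in Con-mGC and 414 to 582 CPM in EM-mGC.

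Lists of ligands, inhibitors and hypoxia genes had medians above 0. The 20 hypoxia response genes had a median of 0.10 with 12 higher and 8 lower, and the 16 tested other angiogenic ligands a median of 0.15 with 10 higher and 6 lower. The endoglin arm of BMP and TGF-beta signalling had 15 higher and 7 lower of 22 (median 0.07), and the inhibitors of angiogenesis were even at 6 and 6 (median 0.06). Few genes of these lists had an unadjusted p under 0.05 by edgeR's quasi-likelihood test. They were 1 higher and 1 lower for hypoxia, 0 and 1 for ligands, 2 and 1 for the endoglin arm and 1 and 1 for inhibitors.

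Markers of other cells are given beside the endothelial genes. Pericyte and smooth muscle markers were lower in 10 of 12 (median -0.37, 4 at an unadjusted p under 0.05), and their sum ranged from 356 to 505 CPM in Con-mGC and from 199 to 422 CPM in EM-mGC. Theca and stroma markers were lower in 6 of 9 (median -0.39, 3 at an unadjusted p under 0.05). Leukocyte markers were higher in 12 of 14 (median 0.66, 7 at an unadjusted p under 0.05), with sums of 229 to 470 CPM in Con-mGC and 335 to 840 CPM in EM-mGC. Red blood cell markers were higher in 6 of 6 (median 0.61), but their sum was 17416 CPM in EM-mGC-3 and 2647 to 6151 CPM in the other EM-mGC libraries, against 3778 to 5941 CPM in Con-mGC. Oocyte markers were lower in 6 of 7 (median -0.25), surface epithelium markers lower in 4 of 4 (median -0.19), granulosa markers lower in 9 of 12 (median -0.05) and platelet markers higher in 2 of 3 tested (median 0.78). Of the 184 listed genes, none of those with enough reads to be tested was called by edgeR (0 genes). DESeq2 called 8, which were Cnn1, Myh11, Itgam, S100a8, S100a9, Fcer1g, Lyz2 and Col1a1, beside 116 of 35663 over all genes with a read. The part of these other cells in the values of the 10 genes was not tested.

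**Figure D3:**
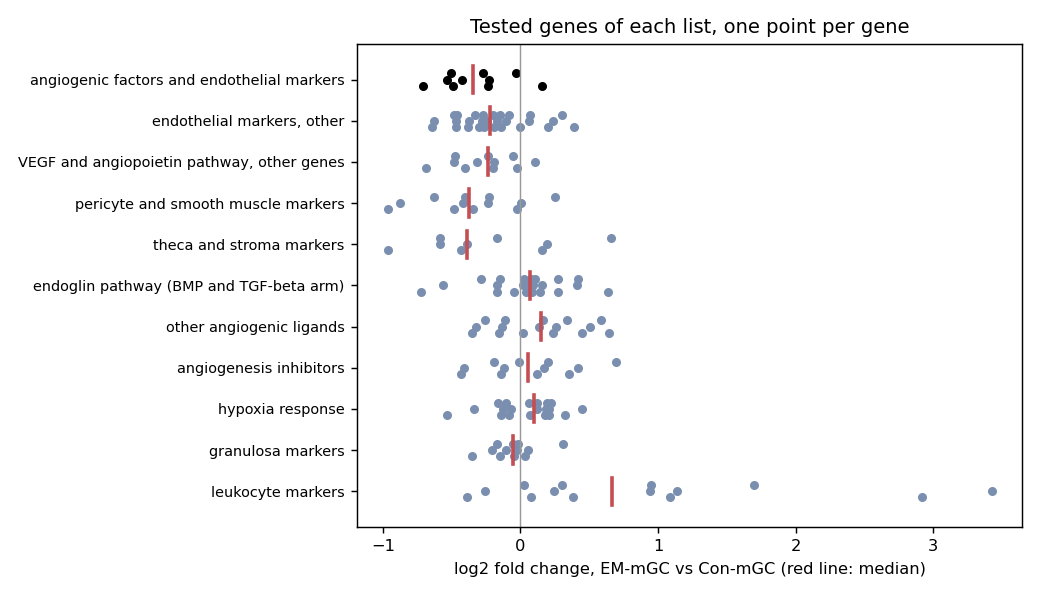
Each point is the log2 fold change of 1 gene in EM-mGC against Con-mGC, grouped by list, and the vertical marks are the list medians. The 10 genes (median -0.35), the pericyte and smooth muscle markers (-0.37) and the theca and stroma markers (-0.39) lay left of 0, and the leukocyte markers (0.66) lay right of it.

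The relation of the 10 genes to further endothelial markers was examined over the 10 fresh libraries. Each gene was related to the summed CPM of the 28 other endothelial markers on a log2 scale. These 10 relations share the libraries and their scaling, and the 5 libraries of a group are too few for a value within it. Pecam1 had the highest r with this sum, an order that other settings change (Pearson r = 0.818, two-sided permutation p = 8.2e-04, adjusted over the 10 relations 0.0082, and Spearman rho = 0.891, adjusted permutation p = 0.0114). With both measures centred on their group means its r was 0.828 (adjusted permutation p = 0.0668) and its rho 0.842 (adjusted permutation p = 0.0372). Cdh5 centred in this way had r = 0.785 (adjusted permutation p = 0.0751) and rho = 0.855 (adjusted permutation p = 0.0372). Without Con-mGC-1 the r of Pecam1 was 0.779 (adjusted permutation p = 0.0665), so its r passed the threshold of 0.05 neither centred nor without this library. Eng (r = 0.727), Cdh5 (r = 0.724) and Flt1 (r = 0.709) came next, with adjusted permutation p-values between 0.0596 and 0.0597. Their Spearman rho was 0.709, 0.661 and 0.624 (adjusted permutation p between 0.133 and 0.147). Kdr (r = 0.508), Tie1 (r = 0.457) and Tek (r = 0.371) had lower values, with adjusted permutation p-values of 0.268, 0.301 and 0.415, and rho of 0.297, 0.406 and 0.285 (adjusted permutation p between 0.491 and 0.611). Leaving out 1 library moved r between 0.26 and 0.70 for Kdr, between 0.26 and 0.74 for Tie1 and between 0.12 and 0.63 for Tek, so their place in this order is not settled. Clec14a, with a mean of 132 CPM, had the largest share of the sum, so the sum weighs it most. The mean log2 CPM of the 28, a setting chosen after seeing the data, weighs each marker alike. With it r was 0.633 for Kdr, 0.616 for Tie1 and 0.528 for Tek (adjusted permutation p of 0.0909, 0.0909 and 0.167).

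For the ligands no relation with the endothelial sum was detectable. Angpt1 had r = 0.108 and rho = 0.236, Angpt2 r = -0.09 and rho = -0.02 and Vegfa r = -0.33 and rho = -0.10, with adjusted permutation p-values from 0.431 to 0.973. Without Con-mGC-1 and EM-mGC-3, the 2 libraries farthest from the median of the sum, r was 0.814 for Pecam1, 0.809 for Cdh5, 0.798 for Flt1, 0.771 for Kdr, 0.656 for Tie1, 0.609 for Eng and 0.547 for Tek. For Vegfa it turned to 0.824, so its value over all 10 libraries rests on these 2. Within Con-mGC, ratios of Vegfa to Kdr in CPM per kb stayed between 8.36 and 9.65 and in EM-mGC between 7.10 and 19.3, a pattern picked after the values were seen.

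Over the same 10 libraries, the protein-coding genes whose log2 CPM was most like that of Vegfa, of 13695 searched, were Aarsd1 (r = 0.982), Krit1 (0.968), Ttll10 (0.951), Ints2 (0.948) and Rmdn3 (0.945). None of these is among the 20 listed hypoxia genes, but those are so few of the 13695 searched that this absence carries no information. Those most like Cdh5 were Shank3 (0.956), Ushbp1 (0.938), Slc9a3r2 (0.936), Clip2 (0.935) and Mmrn2 (0.934), the last of which encodes an endothelial matrix protein. Ushbp1 and Mmrn2 are among the 28 other endothelial markers. All these r are the highest of many values over libraries that share depth and scaling, and carry no test.

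**Figure D4:**
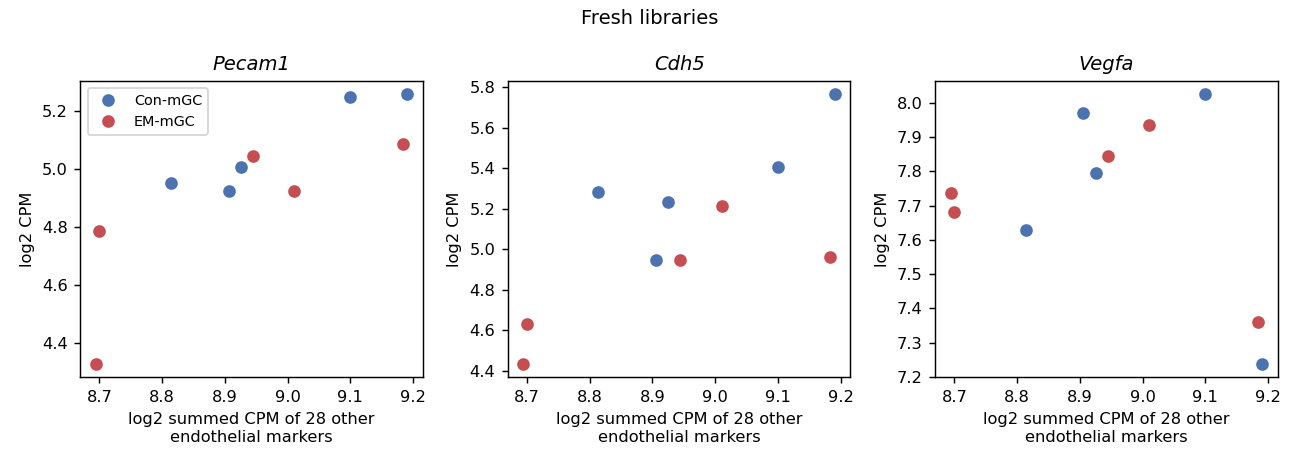
Points are the 10 fresh libraries, with the summed CPM of 28 other endothelial markers on the horizontal axis and the CPM of the named gene on the vertical axis, both as log2. Values of r were 0.818 for Pecam1, 0.724 for Cdh5 and -0.33 for Vegfa, whose points show no such slope.

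Cultured mGCs had far less RNA of the endothelial genes than fresh mGCs of EM mice. The tables were normalized separately and come from different mice, so these levels are set side by side with no test. In all, 6 of the 10 genes were at least 10-fold lower in PBS than in EM-mGC (Angpt2, Kdr, Flt1, Tie1, Cdh5 and Pecam1), as were 912 of 12187 genes with at least 5 CPM in EM-mGC (7.48%). At least 2-fold lower were 8 of the 10, compared with 2831 of these genes (23.2%). The median gene of the 10 had 5.06% of its EM-mGC level in PBS, and the median of all 12187 genes was 86.7%.

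Kdr, Flt1 and Tie1 had too few reads in culture to be tested. The VEGF receptor Flt4 was tested there and had 9.22 ± 0.686 CPM in PBS (SD, n = 3). Kdr had 3, 15 and 9 reads in the PBS libraries and 10, 16 and 6 in the EET libraries, against 355 to 681 reads in EM-mGC. Flt1 had 0, 0 and 2 reads in PBS and 3, 3 and 2 in EET, against 92 to 226 in EM-mGC. Tie1 had 3, 0 and 0 reads in PBS and 1, 0 and 2 in EET, against 157 to 343 in EM-mGC. A floor of 3 reads per library corresponds to between 0.102 and 0.142 CPM in culture, so every cultured value of Flt1 and Tie1 lay at or under it and Kdr lay above it in every library but PBS-1. Means of Kdr were 37.9 ± 11.1 CPM (SD, n = 5) in EM-mGC and 0.348 ± 0.218 CPM (SD, n = 3) in PBS.

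The junction and co-receptor genes kept a low, measurable level. Cdh5 had 0.996, 0.693 and 0.576 CPM in PBS, 38.6-fold below its EM-mGC mean, and 1.05, 0.800 and 1.09 CPM in EET. Pecam1 had 1.80, 2.12 and 1.62 CPM in PBS, 15.7-fold below, and 1.70, 1.45 and 1.88 CPM in EET. Eng had 5.17, 4.19 and 4.68 CPM in PBS, 9.85-fold below and thus just outside the 10-fold limit, and 5.78, 4.23 and 4.94 CPM in EET. Tek was 7.51-fold below, with 1.23, 0.962 and 1.01 CPM in PBS and 0.985, 1.07 and 1.00 CPM in EET. All cultured libraries lay below all fresh libraries for each of these 4 genes.

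The ligands differed in this respect. Vegfa was 1.84-fold and Angpt1 1.73-fold lower in PBS than in EM-mGC, whereas Angpt2 was 26.6-fold lower. Angpt1 had 3.37, 5.04 and 5.18 CPM in PBS and 4.18, 5.18 and 3.64 CPM in EET, which overlaps the fresh range. The order of Angpt2 and Angpt1 was turned around in every cultured library, with Angpt2 to Angpt1 ratios in CPM per kb of 0.495 to 0.764 in PBS and 0.176 to 0.454 in EET. Angpt4, another ligand of TEK and a gene of the pathway list that is named here after its values were seen, had 1.48 CPM per kb in EM-mGC, 22.3 in PBS and 21.3 in EET. In culture it thus stood above both Angpt1 and Angpt2, with 1176 to 1399 reads a library.

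Other lists set the scale of these differences. Of 22 other endothelial markers with at least 5 CPM in EM-mGC, 15 were at least 10-fold lower in PBS (median 2.10% of the EM-mGC level). An exception was Cd93, a receptor of endothelial and myeloid cells, at 35.6 CPM over the fresh libraries and 266 CPM in PBS. Leukocyte markers were at least 10-fold lower in 10 of 12 (median 0.606%), pericyte and smooth muscle markers in 4 of 11 (12%) and granulosa markers in 3 of 12 (29.4%). Theca and stroma markers were so in 7 of 8 (2.43%), oocyte markers in 6 of 6 (0.033%), red blood cell markers in 5 of 5 (0%) and surface epithelium markers in 4 of 4 (3.75%). The pericyte and smooth muscle list was mixed, with 3 of its 11 genes higher in PBS, among them Acta2 and Mcam. Its sum over all 12 genes was 320 CPM in EM-mGC and 796 CPM in PBS. The part of these other cells in the lower levels of the 10 genes was not tested. Hypoxia response genes were at least 10-fold lower in 0 of 17 (94.9%), with 6 higher in PBS. Other angiogenic ligands were so in 0 of 12 (187%, 9 higher) and the endoglin arm in 1 of 21 (114%, 11 higher). Inhibitors were so in 2 of 10 (55.6%, 4 higher) and other VEGF and angiopoietin pathway genes in 0 of 7 (85.8%, 3 higher). The ligands summed to 596 CPM in EM-mGC and 2039 CPM in PBS. The inhibitors summed to 1288 CPM and 6785 CPM, of which Thbs1 made 875 CPM and 5939 CPM.

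The limit of 5 CPM was set on the fresh side alone, which tilts such shares and medians towards lower levels in culture, and it leaves out 5 of the 12 other VEGF and angiopoietin pathway genes. Among those left out, Angpt4 had 3.46 CPM in EM-mGC and 52.1 CPM in PBS, and Vegfd, a ligand of the lymphatic VEGF receptor, had 4.62 CPM and 16.9 CPM. All 10 angiogenic factors and endothelial markers passed the limit.

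**Figure D5:**
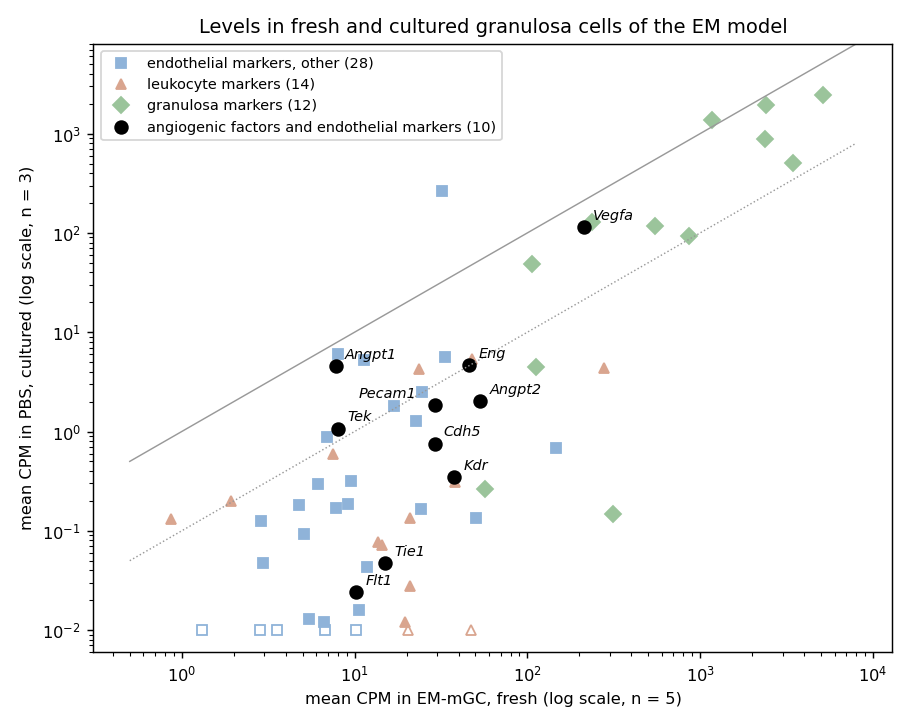
Mean CPM in EM-mGC (horizontal) is set against mean CPM in PBS (vertical) on log axes for the 10 genes and the listed genes. The solid line marks equal levels and the dotted line a level 10-fold lower in PBS, and open symbols at the bottom are genes with no read in PBS. Vegfa and Angpt1 lie near the solid line, and Flt1, Tie1, Kdr, Cdh5, Angpt2 and Pecam1 lie under the dotted line.

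With 14, 15-EET, none of the 7 genes that had enough reads to be tested was called (0 genes by edgeR's quasi-likelihood test and 0 by DESeq2), beside 184 of 15050 genes over the table (1.22%), of which 75 were higher (0.498%) and 109 lower (0.724%). Angpt2 was the gene nearest to a call. It had 1.47, 1.77 and 2.81 CPM in the PBS libraries, from 31, 46 and 78 reads, and 0.985, 0.647 and 1.17 CPM in the EET libraries, from 29, 17 and 28 reads. All EET libraries were below all PBS libraries, a separation found for 2656 of the tested genes (17.6%) and with EET lower for 1380 (9.17%). Means were 2.02 ± 0.701 CPM and 0.935 ± 0.266 CPM (SD, n = 3 each), with a log2 fold change of -1.13 and a standard error of 0.30. Its unadjusted p was 0.00286, under 0.05 like that of 1868 genes (12.4%, with 6.38% lower and 6.03% higher), and its adjusted p was 0.112. Across the alternatives the adjusted p ran from 0.00107 with no filter on low counts to 0.428, and leaving out PBS-1 alone brought it to 0.0395. Leaving out 1 library moved the log2 fold change of Angpt2 between -1.31 and -0.80. The overlap with Mcph1 applies to these few reads as well, and its part in the difference was not tested.

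No other tested gene had an unadjusted p under 0.05 between PBS and EET. Cdh5 had a log2 fold change of 0.40 with a standard error of 0.30 (adjusted p = 0.619), Pecam1 of -0.14 with 0.21 (adjusted p = 0.821) and Eng of 0.10 with 0.15 (adjusted p = 0.827). Angpt1 had -0.07 with a standard error of 0.19 (adjusted p = 0.906), and Tek -0.06 with 0.25 (adjusted p = 0.951). The libraries of both groups overlapped for each of these 5 genes. Of the 7 genes 5 had a negative log2 fold change, as had 49.6% of all genes tested. The median over the 7 was -0.06, beside 0.00107 over all genes.

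Among the listed genes around them, 7 were called in edgeR's quasi-likelihood test in EET against PBS, 3 of them higher and 4 lower. These calls rest on few libraries, since 0 listed genes were called when EET-3 was left out. Leaving out EET-2 gave 3 calls, EET-1 gave 4, PBS-2 gave 12 and PBS-1 gave 15. Calls over all genes moved as well, with 48 without EET-3, 61 without EET-2, 122 without EET-1, 436 without PBS-2 and 350 without PBS-1. Col18a1, whose cleavage yields the angiogenesis inhibitor endostatin, rose from 5.54 to 9.24 CPM (log2 fold change 0.74, adjusted p = 0.00647). Cxcl12, a chemokine that acts on vessels and leukocytes, rose from 263 to 368 CPM (0.49, adjusted p = 0.00942), and the hypoxia response gene Ndrg1 from 24.5 to 33.5 CPM (0.44, adjusted p = 0.0321).

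The genes that fell served several roles. Cnn1, a smooth muscle calponin, fell from 9.44 to 5.80 CPM (-0.70, adjusted p = 0.0166), and Cd93 from 266 to 222 CPM (-0.26, adjusted p = 0.0170). Inha, the inhibin alpha subunit of granulosa cells, fell from 2471 to 1922 CPM (-0.36, adjusted p = 0.0430), and the Notch ligand Jag1 from 124 to 105 CPM (-0.24, adjusted p = 0.0465). These 7 were 2 of 14 tested other ligands and 1 each of 12 inhibitors, 18 hypoxia genes, 9 other endothelial markers, 9 pericyte and smooth muscle markers and 10 granulosa markers. Over all tested genes 184 of 15050 were called (1.22%). None of the 11 tested genes of the remaining VEGF and angiopoietin pathway was called by edgeR or by DESeq2 (0 genes).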

How the data were processed

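Both tables the authors deposited give unnormalized featureCounts read counts for Ensembl genes, with each of the 16 libraries in its own column and 0 columns left unused. Libraries were poly(A)-selected and stranded. The submitters' processing notes name GRCm39, fastp, HISAT2 and StringTie without roles. Versions, the strand setting and the handling of multimapped reads are not given in the sources used here. Only 1460 of 52029 genes shared with the GRCm38 annotation had the same start, so the coordinates are not GRCm38.

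Each experiment was fitted separately in R 4.3.3 with edgeR 4.0.16 (filterByExpr with a minimum count of 10, TMM, the quasi-likelihood test and Benjamini-Hochberg correction over all tested genes), with DESeq2 1.42.0, the test named in the study's methods, as an alternative. Calls needed an adjusted p under 0.05. Standard errors are the absolute log2 fold change divided by the square root of F. The steps were tested on simulated counts. CPM values are TMM-normalized. Levels per kb used union exon lengths of GENCODE M21 (GRCm38), found for all 194 named and listed genes. Promoter sequences are from RefSeq (GRCm38.p6), which matched 6 of the 10 genes. Floors (3 counts) cover counting error only, and depth differed between experiments.

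Groups and replicate numbers came from the labels. The fresh libraries are described as separate mice. Correlations used 100000 two-sided permutations. The genes named were the 10 genes, listed genes called in a comparison (at most 5 per list), the 3 most abundant other endothelial markers, and the 5 genes most like Vegfa and Cdh5. The 10 genes and all lists were chosen with earlier results of these data known. Alternatives were DESeq2, upper-quartile and RLE scaling, other count filters, the replicate number as a block, leaving out each library, and, for correlations, CPM without TMM and group-centred values.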

Additional observations from a re-analysis of the deposited data

Results flagged for a closer look

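In 2 of the 22 sets of libraries examined, counting the 10 genes and the sum of the other endothelial markers in both fresh groups, 1 library stood far from the others of its group. Chance alone marks about 1 in 20 such sets. Flt1 in Con-mGC-2 was 18.9 CPM, with the other 4 Con-mGC libraries between 12.7 and 14.5 CPM, and its gap to the nearest library was 0.712 of the group's range, just past the critical value of 0.71. Eng in Con-mGC-1 was 81.0 CPM, with the others between 43.3 and 52.0 CPM and a gap of 0.770 of the range. Con-mGC-1 also had the highest Angpt2, Tie1, Cdh5 and Pecam1 of its group and the lowest Vegfa and Kdr. Groups of 3 libraries were not examined in this way.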

How the results depend on the processing

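In EM-mGC against Con-mGC, 0 of the 10 genes were called under every alternative. Leaving out 1 library moved the log2 fold change of Vegfa between -0.13 and 0.045 that of Angpt1 between -0.14 and 0.33, Angpt2 between -0.43 and -0.15, Eng between -0.41 and -0.09, Pecam1 between -0.29 and -0.12, and the median of the 10 between -0.46 and -0.22. Of the listed genes, DESeq2 called 8, the replicate block 1, and leaving out 1 library 0 to 3 (3 without Con-mGC-3). Over all genes DESeq2 called 116, no filter 4, the block 2, and leaving out Con-mGC-3 gave 46 and EM-mGC-1 gave 1, against 0.

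In EET against PBS, Angpt2 was the 1 gene called with no filter and without PBS-1 (0 to 1 over the libraries left out). The median of the tested genes ranged from -0.050 to 0.018, Vegfa from -0.050 to 0.036, Tek from -0.13 to 0.049, Angpt1 from -0.23 to 0.032 and Eng from -0.031 to 0.20 when 1 library was left out. Listed genes called were 12 with DESeq2, 29 with no filter, 14 with the replicate block and 0 to 15 with 1 library left out (0 without EET-3, 3 without EET-2, 4 without EET-1, 12 without PBS-2, 15 without PBS-1), against 7. Over all genes 322, 662 and 341 were called, and 48 to 436 with 1 library left out, against 184.

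By Pearson's r, the number of genes related to the other endothelial markers past the threshold was 1 (Pecam1), 0 with values centred on their groups, 5 with CPM without TMM, 4 with the mean log2 CPM of the list (chosen after seeing the data) and 0 to 3 with 1 library left out. By Spearman's rho it was 1, and 2 (Cdh5 and Pecam1), 0 and 3 in the first 3 of these settings. Eng had the highest r with the mean log2 CPM (0.902). Without TMM r was 0.714 for Tie1 (adjusted permutation p = 0.0410), 0.00927 for Vegfa and 0.125 for Angpt2, and with the mean log2 CPM 0.24 for Angpt2. Over the libraries left out r ran from -0.25 to 0.59 for Angpt1 and from -0.49 to 0.24 for Angpt2. The cause was not tested for any of these.

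Same-numbered libraries gave deviations that correlated between -0.282 and 0.203 in the fresh groups and between -0.043 and 0.159 in culture, so the numbers are not shown to mark pairs. The block called 0 of the 10 genes in both comparisons. In culture, leaving out 1 library leaves 2 against 3, and few reads limit what Kdr, Flt1 and Tie1 can show.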
